A study of Mus musculus with 15 samples.

Results

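The subcortical maternal complex is described here through the mRNA levels of its 8 genes, Nlrp5, Ooep, Tle6, Khdc3, Padi6, Nlrp2, Nlrp4f and Zbed3, in pools of mouse embryos at the 2-cell stage. They were taken by gene symbol, each matched 1 row, and they are 8 of the 53023 genes in the expression table. The complex assembles in the growing oocyte, lies under the plasma membrane of the egg, and is inherited by the cells of the early embryo as protein made before fertilisation. In mice the loss of Nlrp5, Ooep, Tle6 or Padi6 from the mother stops her embryos in early cleavage, and the complex is also known for its part in the cytoplasmic lattices, the fibrous stores of the egg, and in the organisation of cytoplasmic actin filaments and the spindle. The mRNAs themselves are maternal transcripts, most of which are cleared during egg maturation and after fertilisation.

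The study asked what happens to the embryo's transcriptome when actin filaments in the nucleus are disturbed, and measured polyadenylated RNA by sequencing. Embryos of the ICR strain were made by in vitro fertilisation, mRNA was injected at 2 hours after insemination, and each library came from a pool of 5 embryos collected at 32 hours. The 6 libraries analysed form pairs C, B and A with 2 pools each, and are called C1, C2, B1, B2, A1 and A2 by pair and by the number in the title. What each pair received is stated in contradictory ways. Pair C is annotated with the mRNA actinR62D-HA-NLS, which codes for a tagged nuclear actin that does not polymerise, but is titled as a non-injected control. Pair B carries the annotation actinWT-HA-NLS, wild-type actin with the same tag and nuclear signal, but the title R62D. Pair A is annotated as non-injected and titled Wt. Both labels divide the libraries into the same pairs, so values are given by pair, and a direction between pairs cannot be tied to 1 treatment. Titles and design text use the same names for the treatments, and the design text describes the actins as overexpressed in the pronuclei of the zygote. ERCC spike-in RNA was added to each lysate and is not used here. The other 9 samples of the series were not analysed here.

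Values are FPKM, in which fragment counts are divided by gene length and by library size. Where 2 values are given for a pair, library 1 comes first. Assigned reads, recovered from FPKM and gene length, numbered 907210 to 1555431 per library, with C2 the shallowest and C1 the deepest. A2 and C2 stood apart from the other libraries in the number of genes detected. They had 12485 and 12279 genes at 1 FPKM or more, against 13239 to 13845 in the other 4. Mitochondrial RNA took 13.13% of the reads in A2. In C2 it took 10.86%, close to the 10.55% of A1, where the other 4 ranged from 7.23% to 10.55%. B2 had 41.4 reads on the Y chromosome, where the others had 170.8 to 411.3. Genes known from the 2-cell stage were present in all libraries, with Zscan4c at 17.5 to 191.7 FPKM and Zfp352 at 111.2 to 321 FPKM. Oocyte transcripts were mostly present in all. Zp3 measured 64.8 to 142 FPKM and was highest in A2. Oog1, Bmp15, H1foo and Gdf9 had lowest values of 155, 41.4, 15.6 and 5.70 FPKM, each in A2 or C2. Zar1 was listed at 0 in A1, A2 and C2. Of 12 cumulus and granulosa cell markers together there were 7 to 19 reads per library, of 7 sperm transcripts 0 to 1.5 reads, and of 7 blood cell markers 6.5 to 73 reads, nearly all on the alpha-globin genes Hba-a1 and Hba-a2. The beta-globins Hbb-bs and Hbb-bt and the granulosa genes Foxl2, Fshr, Inha, Inhba and Ptx3 were listed at 0. The alpha-globin reads were fewest in A2 and C2, and whether this bears on the levels below was not tested. In pools, fewer contributing embryos and less RNA per embryo cannot be told apart.

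All 8 genes of the complex had reads in every library, at levels that spanned from a rank among the most abundant mRNAs to a handful of reads. Khdc3 and Nlrp2 had 2 reads each in C2, under the floor of 3 reads that a count of 0 allows. Zbed3 led by far, and Nlrp2 and Khdc3 lay near the limit of what the depth could measure. Averaged over the 6 libraries, Zbed3 measured 208 ± 89.0 FPKM, Nlrp4f 37.3 ± 7.28 FPKM, Ooep 31.4 ± 16.5 FPKM and Padi6 13.9 ± 6.60 FPKM (SD, n = 6 libraries of 3 pairs). The rest followed with 5.94 ± 2.10 FPKM for Nlrp5, 4.65 ± 1.35 FPKM for Tle6, 2.59 ± 1.68 FPKM for Khdc3 and 1.74 ± 0.92 FPKM for Nlrp2. Among 21963 protein-coding genes, Zbed3 ranked 228 by mean FPKM and Nlrp2 ranked 7533. Zbed3 alone made up 62.6% to 74.3% of the summed FPKM of the complex. The reads behind these levels totalled 3451 for Zbed3, 1012.5 for Nlrp4f, 499.5 for Ooep and 262 for Padi6 over the 6 libraries. They were 206.7 for Nlrp5, 105 for Tle6, 46 for Nlrp2 and 40.8 for Khdc3. Some recovered values are parts of a read.

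The order of the levels held in every library at some steps and not at others. It was taken from the means of the same 6 libraries, so it is given as a description with no test. On the log2(FPKM + 1) scale Zbed3 was above Nlrp4f by 2.36 ± 0.51, Ooep above Padi6 by 1.08 ± 0.34, Padi6 above Nlrp5 by 1.04 ± 0.63 and Tle6 above Khdc3 by 0.73 ± 0.30, each in 6 of 6 libraries (mean difference ± SD, n = 6). Nlrp4f was above Ooep by 0.38 ± 0.68 and Nlrp5 above Tle6 by 0.27 ± 0.29, in 4 of 6 libraries each, and these differences were within their SD. Khdc3 was above Nlrp2 by 0.35 ± 0.34 in 5 of 6 libraries, a difference about as large as its SD.

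**Figure D1:**
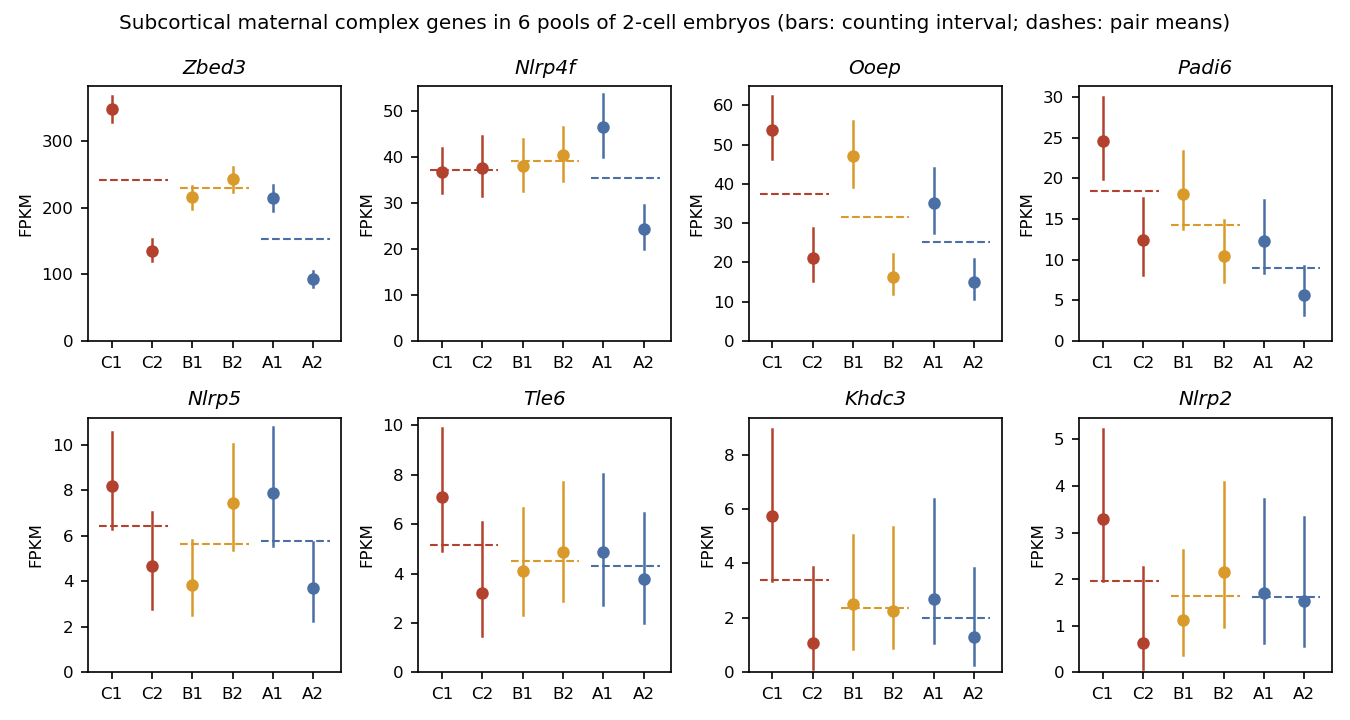
FPKM of each gene (vertical axis, linear from 0) in the 6 libraries, pair C left, B in the middle and A right; points are libraries, bars are 95% counting intervals of the reads converted to FPKM, and dashed lines are pair means. In 7 of 8 panels C1 is the highest point, and the lowest is A2 or C2 in all 8.

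Zbed3, a BED-type zinc finger protein that joins the complex, is encoded on chromosome 13 (95323612 to 95337841, plus strand, mm10). It measured 349 and 136 FPKM in pair C, 216 and 243 FPKM in pair B, and 214 and 92.8 FPKM in pair A. C1 held the highest value and A2 and C2 the lowest, so that pair C enclosed all of pair B, and B lay just above A. The means were 242 ± 150.5 FPKM for pair C, 229 ± 19.0 FPKM for pair B and 154 ± 86.0 FPKM for pair A (SD, n = 2). With 231.5 to 1210 reads per library, counting error was small beside the differences within pairs C and A. The step from A1 at 214 FPKM to B1 at 216 FPKM, which sets B above A, was inside counting error.

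The NLR proteins of the complex come from Nlrp5, known as MATER, Nlrp4f and Nlrp2. Nlrp4f (chromosome 13, 65177111 to 65205977, minus strand) had the lowest coefficient of variation of the complex, a measure that includes counting error. It had 36.8 and 37.6 FPKM in pair C, 38.0 and 40.4 FPKM in pair B, and 46.6 and 24.4 FPKM in pair A. Both C libraries were below both B libraries by a margin inside counting error, while the A libraries enclosed the others. Nlrp5 (chromosome 7, 23385889 to 23441922, plus strand) had 8.16 and 4.66 FPKM in pair C, 3.83 and 7.43 FPKM in pair B, and 7.87 and 3.69 FPKM in pair A, and every pair overlapped with every other. Here B1 was low and B2 high, the reverse of Ooep and Padi6 in the same libraries. Nlrp2 (chromosome 7, 5298547 to 5351035, minus strand) had 3.30 and 0.63 FPKM in pair C, 1.13 and 2.15 FPKM in pair B, and 1.71 and 1.53 FPKM in pair A. These rested on 18 and 2 reads in C, 5 and 9 in B, and 6 and 6 in A. A count of 2 reads, as in C2, has a 95% Poisson interval of 0.242 to 7.22 reads, which covers counting error only.

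Ooep and Khdc3 encode KH-domain proteins known as FLOPED and FILIA, and both lie on chromosome 9. Ooep (78376109 to 78378725, minus strand) measured 53.8 and 21.1 FPKM in pair C, 47.0 and 16.2 FPKM in pair B, and 35.1 and 15.1 FPKM in pair A. In each pair the library numbered 1 was more than 2 times as high as the one numbered 2, and all 3 pairs overlapped. Khdc3 (73101836 to 73104438, plus strand) had 5.75 and 1.08 FPKM in pair C, 2.51 and 2.25 FPKM in pair B, and 2.68 and 1.31 FPKM in pair A. C1 stood alone at the top with 18.3 reads, and the other 5 libraries had 2 to 6.5. The level of Khdc3 carries a second limit, since 790 of its exonic bases (38.5%) also belong to Gm20509, an annotated protein-coding gene on the same strand (73102470 to 73117920). Gm20509 runs from Khdc3 into Rsl24d1, shares 226 bases with Rsl24d1, and has 0 exonic bases of its own. It was assigned 101 and 64.6 reads in pair C, 96.8 and 85 in pair B, and 47.3 and 72.6 in pair A. How reads over shared bases were assigned is not given in the sources used here, so the Khdc3 values are uncertain in level.

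Tle6, a Groucho-related protein, and Padi6, a peptidylarginine deiminase family member without which the lattices of the mouse egg do not form, complete the set. Padi6 (chromosome 4, 140727355 to 140742643, minus strand) measured 24.6 and 12.4 FPKM in pair C, 18.1 and 10.4 FPKM in pair B, and 12.2 and 5.65 FPKM in pair A. The C libraries lay above the A libraries, C2 over A1 by less than the value of 1 read. Tle6 (chromosome 10, 81590904 to 81601073, minus strand) had 7.08 and 3.21 FPKM in pair C, 4.10 and 4.88 FPKM in pair B, and 4.86 and 3.77 FPKM in pair A. Its 9 to 34 reads per library varied little more than counting alone would give, with a chi-square per degree of freedom of 1.56, where 1 is counting error. That ratio grows with depth, so the genes are compared by the coefficient of variation over the 6 libraries. This coefficient includes counting error, which weighs more on genes with few reads. It was 19.5% for Nlrp4f, 29.1% for Tle6, 35.3% for Nlrp5, 42.7% for Zbed3, 47.5% for Padi6, 52.6% for Ooep, 53.0% for Nlrp2 and 64.6% for Khdc3, beside a median of 37.5% over all 13443 genes tested.

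The promoters were searched for the letters of FIGLA and NOBOX, oocyte factors with known binding letters. Figla mRNA itself was listed at 0 in every library but A1, where it had 2 reads, and Nobox averaged 2.83 FPKM. The promoters of Zbed3, Padi6, Nlrp5 and Nlrp2 are shown because their RefSeq starts coincide, to within 7 bases, with the gene starts of the annotation. The windows of the other 4 genes overlap annotated exons and are not printed. Each sequence is the 250 bases before the start, 5′ to 3′ on the strand of the gene, from RefSeq on GRCm38.p6 (the build also called mm10). They lie at chr13:95323355-95323604, chr4:140742644-140742893, chr7:23385639-23385888 and chr7:5351036-5351285. Capitals mark E-boxes (CANNTG, a pattern that matches on both strands alike), the letters bound by basic helix-loop-helix factors such as FIGLA, which is known to act on oocyte genes.
Zbed3: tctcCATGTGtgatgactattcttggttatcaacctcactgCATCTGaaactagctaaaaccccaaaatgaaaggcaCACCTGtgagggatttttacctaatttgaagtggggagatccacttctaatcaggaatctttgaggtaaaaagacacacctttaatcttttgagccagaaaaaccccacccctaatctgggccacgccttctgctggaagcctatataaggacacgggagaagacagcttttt
Padi6: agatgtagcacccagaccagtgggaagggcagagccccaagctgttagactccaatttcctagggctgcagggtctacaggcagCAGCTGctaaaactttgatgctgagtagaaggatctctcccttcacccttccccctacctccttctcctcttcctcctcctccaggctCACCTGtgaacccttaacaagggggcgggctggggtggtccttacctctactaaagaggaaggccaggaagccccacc
Nlrp5: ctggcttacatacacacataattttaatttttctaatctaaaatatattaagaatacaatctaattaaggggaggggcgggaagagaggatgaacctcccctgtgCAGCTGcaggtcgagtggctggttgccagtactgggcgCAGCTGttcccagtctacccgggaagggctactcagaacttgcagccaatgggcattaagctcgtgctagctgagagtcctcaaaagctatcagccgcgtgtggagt
Nlrp2: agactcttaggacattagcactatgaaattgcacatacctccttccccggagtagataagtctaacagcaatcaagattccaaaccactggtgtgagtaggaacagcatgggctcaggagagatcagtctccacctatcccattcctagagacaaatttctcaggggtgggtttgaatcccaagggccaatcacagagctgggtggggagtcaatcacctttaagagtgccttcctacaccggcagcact
Of the 8 promoters 7 hold at least 1 E-box, as do 66.2% of 32851 RefSeq promoter windows of the same length. Zbed3 has 3, Padi6 and Nlrp5 have 2 each, and Nlrp2 has none in this window. CAGCTG, itself an E-box and present in 13.0% of all windows, occurs in Padi6 and Nlrp5. TAATTG, searched on both strands as letters bound by the oocyte homeodomain factor NOBOX, was found in Ooep alone of the 8 and in 7.17% of all windows. No other letters were searched for NOBOX, so a window without TAATTG is not shown to lack a NOBOX site. These matches are a description of letters and not of binding.

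The highest and lowest values of the complex fell mostly in the same few libraries. C1 was the highest of the 6 libraries for 7 of 8 genes, where it was the highest for 20.2% of the 13443 genes tested, those averaging 1 FPKM or more. Nlrp4f was highest in A1, as were 16.1% of all genes. The lowest library was A2 for 5 genes (23.0% of all genes) and C2 for the other 3 (18.2%), so all 8 were lowest in A2 or C2, against 41.2% of all genes tested. After scaling each library by its median, 6 of 8 were highest in C1 (12.7% of all genes) and 6 of 8 lowest in A2 or C2 (31.5%). Quantile normalization gave 6 of 8 (13.4%) and 6 of 8 (31.0%). For all 8 genes the largest ratio between the pools of 1 pair exceeded the largest ratio between pair means. The same held for 79.2% of all genes with values above 0 throughout. Ratios of single pools spread wider than ratios of means, so this order says little about the complex. Within pairs the ratio reached 2.89-fold for Ooep in pair B and 2.57-fold for Zbed3 in pair C. For Khdc3 and Nlrp2 it involved the 2 reads of C2 and no ratio is given. The largest ratio between pair means was 2.07-fold, for Padi6 in C over A, close to its 2.17-fold between the pools of pair A. A1 was above A2 for 8 of 8 genes (53.2% of all genes) and C1 above C2 for 7 of 8 (59.7%), while B1 was above B2 for 3 of 8 (48.4%).

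Relative to each gene's mean, the median of the complex on the log2(FPKM + 1) scale was 0.79 in C1 and -0.39 in C2, 0.06 in B1 and 0.11 in B2, and 0.15 in A1 and -0.55 in A2. The 27 tested of 30 other maternal transcripts had medians of 0.45 and -0.39 in pair C, 0.24 and -0.06 in pair B, and 0.40 and -0.58 in pair A. Low medians in C2 and A2 were thus seen in both sets, and 20 of the 27 were lowest in A2 or C2, as were 17 of the 20 genes of the 2-cell stage and 41.2% of all genes. The sets differed in how often A2 and C2 were both below the other 4 libraries. This held for 3 of 8 complex genes, 18 of the 27 maternal transcripts and 8 of the 20 genes of the 2-cell stage. The share over all genes is not given for this count. The genes of the 2-cell stage had their own peak in B2 at 0.93, with -0.34 in C2 and -0.77 in A2. Over all genes tested the median stayed between -0.08 and 0.12. The summed FPKM of the complex was 488 and 217 in pair C, 330.5 and 327 in pair B, and 326 and 148 in pair A. The part that depth, mitochondrial share or the state of these pools has in the levels of A2, C2 and C1 was not tested.

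**Figure D2:**
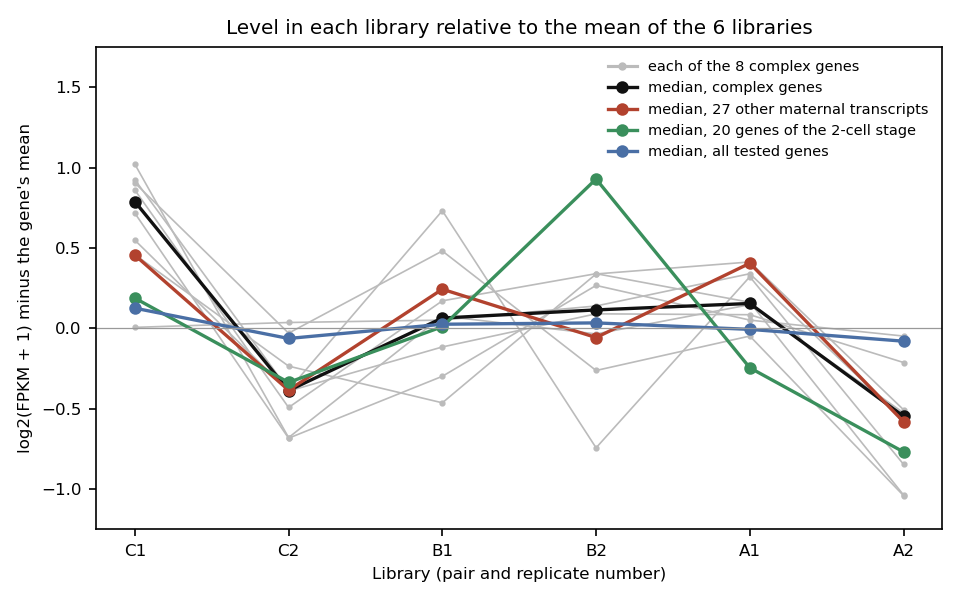
Log2(FPKM + 1) minus the gene's mean over the 6 libraries (vertical axis) for each library, pair C left and pair A right; grey lines are the 8 genes, thick lines are medians of the complex, of 27 other maternal transcripts, of 20 genes of the 2-cell stage and of 13443 tested genes. The complex peaks in C1 at 0.79 and is low in C2 (-0.39) and A2 (-0.55), and the lines join libraries only to guide the eye.

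The closest profiles to the mean of the complex were found by the root mean square difference of centred log2(FPKM + 1) values over the 6 libraries, among 3198 other genes that averaged 20 FPKM or more. They were Anp32b at 0.077, E2f5 at 0.089, Akip1 at 0.098, the processed pseudogene Gm14176 at 0.104 and Mthfd2 at 0.119, where the median of these genes was 0.516. E2f5, a transcription factor of the E2F family, measured 253 and 139 FPKM in pair C, 155 and 173 FPKM in pair B, and 186 and 104 FPKM in pair A. Its order of libraries has the same top and the same bottom as Zbed3. The genes of the complex, which are part of that mean, lay from 0.192 for Tle6 to 0.437 for Ooep. The named genes were picked as the closest of many, so their smaller differences follow from the choice.

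For pair C against pair B the annotated mRNAs are R62D and wild-type actin, while the titles read non-injected control and R62D. No gene of the complex passed the test between these pairs. Of the 8, 6 had log2 fold changes above 0 and 2 below, with a median of 0.12, where 49.9% of all genes were above 0 and their median was 0. Padi6 had 0.33 ± 0.51, Ooep 0.28 ± 0.67, Nlrp5 0.17 ± 0.50 and Zbed3 -0.07 ± 0.54 (SE). The share of all genes called at an adjusted p under 0.05 was 0.0%, and the members had 0 calls (limma, adjusted p = 1 for Padi6). At an unadjusted p under 0.05 there were 0 members too, beside 1.64% of all genes higher and 2.22% lower, with 0 called by limma-voom on reads as well. Of the 8 genes 0 had both C libraries above both B libraries, as 15.5% of all genes did. Nlrp4f was the 1 gene whose pairs did not overlap, with both C libraries lower, as for 14.8% of all genes, and its 95% interval ran from -0.94 to 0.79. Without A2 and C2, 7 of 8 were above 0 with a median of 0.67, without C1 0 of 8 were, with a median of -0.38, and without B1 3 of 8, with a median of -0.065. Leaving out B2 gave a median of 0.053. The share of all genes above 0 was not counted without these libraries, in this comparison or the next ones. Such shifts are therefore not shown to be particular to the complex.

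For pair C against pair A the annotated mRNAs are R62D and none, while the titles read non-injected control and Wt. All 8 log2 fold changes were above 0, with a median of 0.26, but none passed the test, and 56.5% of all genes were above 0 as well. Padi6 had the largest, 0.98 ± 0.51 (SE), with means of 18.5 ± 8.64 FPKM for pair C and 8.95 ± 4.66 FPKM for pair A (SD, n = 2) and a 95% interval of -0.22 to 2.18. In limma it had an unadjusted p of 0.0948, the lowest of any member in these comparisons, and an adjusted p of 1. It was the 1 gene whose pairs did not overlap, where 16.5% of all genes were higher in that way. Zbed3 followed with 0.62 ± 0.54, Ooep with 0.53 ± 0.67 and Khdc3 with 0.36 ± 0.63, while Nlrp4f, Tle6, Nlrp5 and Nlrp2 had 0.14 ± 0.37, 0.14 ± 0.44, 0.16 ± 0.50 and 0.015 ± 0.59 (SE). The share called over all genes was 0.0%, and at an unadjusted p under 0.05, where the members had 0, it was 1.67% higher and 1.34% lower; limma-voom called 0. Single libraries set the direction of the median. Without C1 it was -0.15 with 2 of 8 above 0, and without A2 it was -0.02 with 3 of 8. Without C2 it was 0.95 with 8 of 8. Padi6 stayed above 0 whichever 1 library was left out, at 0.49 to 1.48. Leaving out A1 gave a median of 0.66, and leaving out both A2 and C2 gave 0.63.

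For pair B against pair A the annotated mRNAs are wild-type actin and none, while the titles read R62D and Wt. Again no gene of the complex passed the test, and 6 of 8 were above 0 with a median of 0.21, beside 55.1% of all genes. Zbed3 had 0.69 ± 0.54 and Padi6 0.65 ± 0.51 (SE), with 95% intervals of -0.57 to 1.96 and -0.55 to 1.85 (limma, adjusted p = 0.991 each). Zbed3 was the 1 gene whose pairs did not overlap, higher in B as were 18.8% of all genes, although B1 at 216 FPKM and A1 at 214 FPKM were nearly level. Nlrp5 and Nlrp2 had -0.02 ± 0.50 and -0.02 ± 0.59 (SE). The share called was 0.0% here too, and at an unadjusted p under 0.05, where the members had 0, it was 2.77% higher and 1.79% lower; limma-voom called 0. Without A2 the median was -0.11 with 2 of 8 above 0, and without A1 it was 0.61 with 8 of 8. Without both A2 and C2 it was -0.11. The 3 comparisons share pairs, so their values are not independent of each other.

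**Figure D3:**
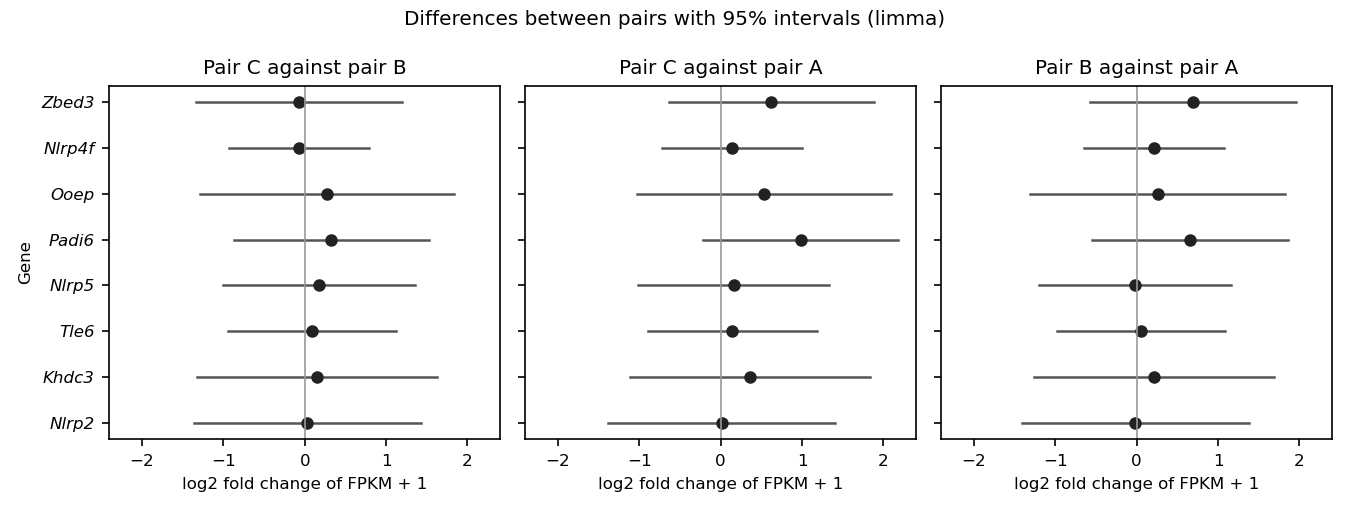
Log2 fold change of FPKM + 1 (horizontal axis) for the 8 genes in the 3 comparisons; points are limma estimates and bars their 95% intervals. Every bar crosses 0, and the interval that reaches farthest from 0 on 1 side is that of Padi6 in C against A, from -0.22 to 2.18.

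The intervals show what the design could see. The SE of the members ran from 0.37 for Nlrp4f to 0.67 for Ooep, beside a median of 0.47 over all genes. For Nlrp4f a difference beyond 1.07 on the log2 scale lay outside the interval in each comparison, whereas for Ooep the interval reached 2.10 in C against A. Lack of a call therefore does not show that the pairs had equal levels.

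Other genes of the lattices and known partners were set beside the complex. Of 9 symbols 8 were in the table and 7 tested, and 0 passed in any comparison (limma). In C against A 6 of 7 were above 0 with a median of 0.21, in C against B 4 of 7 with 0.09, and in B against A 3 of 7 with -0.03. The most abundant were Skp1a, of the SCF ubiquitin ligase, at 313 ± 74.7 FPKM, Ube2d3, a ubiquitin-conjugating enzyme, at 53.4 ± 10.2 FPKM, and Nlrp14, an NLR gene of the germ line, at 46.4 ± 14.1 FPKM (SD, n = 6). Cfl1, the actin-severing cofilin, measured 56.4 and 33.5 FPKM in pair C, 43.2 and 52.5 FPKM in pair B, and 43.3 and 36.1 FPKM in pair A, with a log2 fold change of -0.13 ± 0.35 in C against B (SE). The tubulin gene Tuba1c had the lowest unadjusted p of the list, with 23.1 and 5.70 FPKM in pair C, 34.2 and 38.8 FPKM in pair B, and 6.68 and 4.85 FPKM in pair A. Both B libraries were above all others, with log2 fold changes of -1.56 ± 0.58 in C against B (SE; limma, adjusted p = 1) and 2.48 ± 0.58 in B against A (SE; limma, adjusted p = 0.875). Tubulin genes are near-identical in coding sequence, so this level is uncertain for the single gene. For 6 of the 7 tested genes the lowest library was A2 or C2 in the values as deposited, against 41.2% of all genes. These genes were not counted after median scaling.

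Within the protein families the genes of the complex stood out to different degrees. Among the peptidylarginine deiminases Padi6 alone reached 1 FPKM, at 13.9 ± 6.60 FPKM, while Padi4 had 0.11 FPKM, Padi3 and Padi1 had less than 0.05 FPKM (0.048 and 0.043), each on at most 1 read in any library, and Padi2 was listed at 0. Zbed3 was far above Zbed5 (8.15 ± 1.48 FPKM), Zbed4 (3.22 ± 0.69 FPKM) and Zbed6 (1.18 ± 0.44 FPKM, SD, n = 6). Tle6 at 4.65 FPKM lay between Tle4 at 16.5 ± 4.26 FPKM and Tle1 at 1.37 ± 0.86 FPKM, with Aes at 0.68 FPKM and Tle3 listed at 0. Tle1 had an unadjusted p of 0.0391 in C against A (limma, log2 fold change 1.21 ± 0.48, adjusted p = 1) on at most 32 reads. Of the related KH-domain genes, Dppa5a at 1615 ± 343 FPKM and Khdc1b at 301 ± 104 FPKM were above Ooep, and Khdc1c at 19.4 ± 4.38 FPKM and Khdc1a at 11.9 ± 3.48 FPKM were below it and above Khdc3. Dppa5a, the coding neighbour of Ooep at a distance of 7932 bases, had its highest value in A2, the library where Ooep was lowest.

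Of 19 relatives of the NLR genes 11 were tested, and 0 passed (limma). Nlrp9c at 126 ± 31.1 FPKM and Nlrp14 were above Nlrp4f, and Nlrp9a at 26.2 ± 11.0 FPKM followed. Nlrp5 lay below Nlrp4g (17.3 FPKM), Nlrp4e and Nlrp4a (6.93 FPKM), and Nlrp2 lay above Nlrp3 and Nlrp12 but below the other tested genes of the list. Nlrp1a, Nlrp1b, Nlrp4d, Nlrp6 and Nlrp10 were listed at 0. Nlrp4e, the coding neighbour of Nlrp5 at 23612 bases, had an unadjusted p of 0.0324 in C against A, with 20.7 and 17.2 FPKM in pair C and 11.9 and 7.47 FPKM in pair A (limma, log2 fold change 0.93 ± 0.35, adjusted p = 1). Medians of the relatives were -0.01 in C against B, 0.19 in C against A and 0.12 in B against A. The Nlrp4 genes, Nlrp4f included, and the Nlrp9 genes are close paralogs, so single values are uncertain where a read could come from more than 1 of them.

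**Figure D4:**
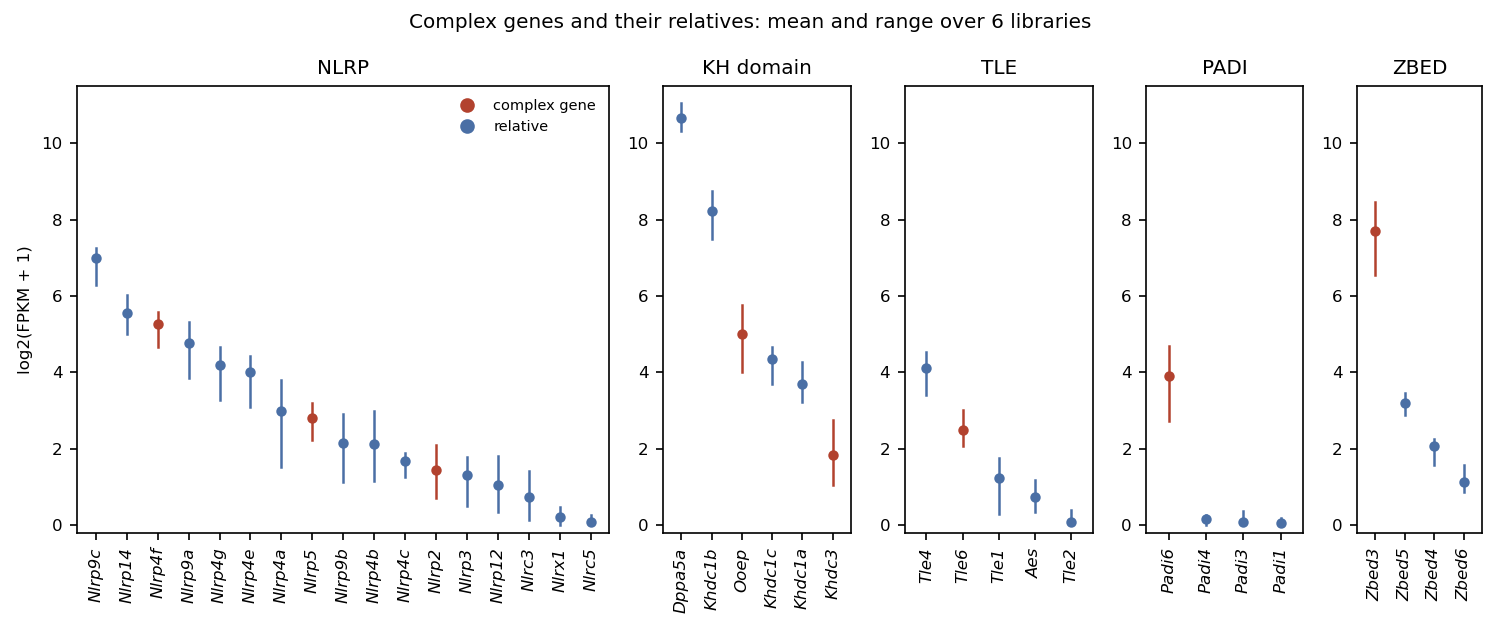
Mean FPKM over the 6 libraries as log2(FPKM + 1) (vertical axis, points) with the lowest and highest library (bars) for the genes of the complex (red) and their relatives (blue) by family; genes listed at 0 in all libraries are left out. Padi6 and Zbed3 are the highest of their families, and Khdc3 is the lowest of the KH-domain genes.

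Transcription factors of the oocyte and other maternal mRNAs gave the setting in which these levels were read. Of 8 oocyte factors 5 were tested, led by Taf4b at 28.7 ± 3.55 FPKM, Lhx8 at 3.64 ± 0.83 FPKM and Nobox at 2.83 ± 1.36 FPKM (SD, n = 6), while Figla had at most 2 reads in any library. Their medians were 0.29 in C against B, 0.47 in C against A and 0.17 in B against A, with 0 called (limma). The maternal transcripts, led by Dppa3 at 8004 ± 1206 FPKM, Oog3 at 2015 ± 664 FPKM and Tcl1 at 1053 ± 755 FPKM, had medians of -0.02, 0.11 and 0.07 in the same order, with 0 called. An unadjusted p under 0.05 was met by Ddx4 in C against B, with a log2 fold change of 1.21, and by Dazl and Oog3 in B against A, with 1.16 and 0.87, where 1.64% and 2.77% of all genes were called higher. The 20 genes of the 2-cell stage, led by Gm2016, Tcstv3 and Obox3, had medians of -0.57, 0.29 and 1.14, with 0 called (limma). At that unadjusted level 5 of them were below 0 in C against B (2.22% of all genes), 1 was above 0 in C against A (1.67%) and 10 were above 0 in B against A (2.77%). So was the cumulus marker Tnfaip6 in B against A (limma, log2 fold change 1.45 ± 0.50, SE, adjusted p = 0.991), on at most 5 reads per library.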

How the data were processed

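Libraries were grouped by pair as described above. The authors deposited 1 table of FPKM values with a gene length in bases, per the file headers. Per the submitters' processing notes, STAR, featureCounts, cutadapt, Trim Galore and Trimmomatic were used with mm10; no versions are listed. The table has 0 spike-in rows. Its annotation and strand setting: not given in the sources used here. Of its gene IDs 99.8% are in GENCODE M21.

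FPKM times length is the number of reads times a constant per library, read from the commonest value; 100% of values above 0 were then multiples of 0.01 read (tolerance 0.0005 read) and 55.58% to 57.88% were whole (tolerance 0.001 read). Poisson intervals cover counting error only.

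Values were tested as log2(FPKM + 1) for 13443 genes averaging 1 FPKM or more, all 8 members among them, with 1 mean per pair over 6 libraries in limma 3.58.1 (R 4.3.3) with a variance trend. Adjusted p is by the Benjamini-Hochberg method over all genes, threshold 0.05. This scale understates the change of low genes. Nothing in the labels says that pools came from separate matings or days, so each p-value reflects only how far these pools differ. The limma step was tested on simulated data with known changes, and it gave the right direction throughout. It missed most changes of the smallest size when every gene was given the median spread of these data. That smallest size was larger than any fold change of a member between pairs in the fit of all 6 libraries. More false calls were made than the threshold allows, nearly all among genes with fewer reads than any member. Adjusted p-values of such genes may therefore be too small. Shifts shared by many genes of a library, and a spread that differs by gene, were not simulated. cDNA was amplified without molecular identifiers being stated.

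The members, lists and alternatives were chosen with earlier results of these data known. Named were all members and the 5 genes of closest profile. From each list came the 3 most abundant genes and those with an unadjusted p under 0.05. Of the 2-cell-stage genes and of cell type markers other than those of the oocyte fewer are named. Cfl1, Figla, further relatives and the oocyte markers Oog1, Bmp15, H1foo, Gdf9 and Zar1 were added after their values were seen. Figures were drawn with matplotlib 3.10.9.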

Additional observations from a re-analysis of the deposited data

How the results depend on the processing

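Over all genes 0 passed in each comparison (limma), with 220 higher and 298 lower at an unadjusted p under 0.05 in C against B. These were 225 and 180 for C against A and 373 and 241 for B against A. The last split became 302 and 294 after median scaling and 315 and 321 after quantile normalization, and that of C against A 199 and 200 and 190 and 216. Median scaling, quantile normalization, no filter, a filter at 5 FPKM, no variance trend, the compared pairs alone, limma-voom on recovered reads, leaving out A2 with C2 and leaving out each library also gave 0. A pseudocount of 0.1 gave 1 in C against B, Igkv13-87, named after its values were seen, on 0 reads in C and 10 in each B library. With the replicate block the count was 0 in each comparison; in this balanced layout the block cannot move a fold change, so the member medians are 0.12, 0.26 and 0.21 by construction. The SE of Padi6 in C against A became 0.32 with the block, against 0.51 without it, and its unadjusted limma p became 0.0190 (adjusted p = 1), the 1 member value under 0.05 in any setting. The numbers were not shown to pair the libraries, since deviations from pair means correlated across genes at 0.10 for A and B, 0.20 for A and C and 0.005 for B and C.

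No member passed in any setting (smallest adjusted p 0.863), and 20 of 24 member fold changes turned in sign when 1 library was left out. In C against B the ranges were -0.23 to 0.58 (Nlrp5), -0.46 to 1.01 (Ooep), -0.38 to 0.56 (Tle6), -0.70 to 1.00 (Khdc3), -0.14 to 0.80 (Padi6), -0.67 to 0.73 (Nlrp2) and -0.75 to 0.61 (Zbed3). In C against A they were -0.30 to 0.62 (Nlrp5), -0.12 to 1.19 (Ooep), -0.33 to 0.61 (Tle6), -0.49 to 1.21 (Khdc3), -0.69 to 0.72 (Nlrp2), -0.32 to 0.59 (Nlrp4f) and -0.055 to 1.30 (Zbed3). In B against A they were -0.48 to 0.44 (Nlrp5), -0.48 to 0.99 (Ooep), -0.10 to 0.20 (Tle6), -0.13 to 0.55 (Khdc3), -0.30 to 0.27 (Nlrp2) and -0.24 to 0.66 (Nlrp4f). Padi6 kept its sign in C against A (0.49 to 1.48) and in B against A (0.16 to 1.15). So did Zbed3 in B against A (0.094 to 1.29) and Nlrp4f in C against B (-0.12 to -0.030). Medians of the members ranged from -0.11 to 0.61 in B against A, -0.15 to 0.95 in C against A and -0.38 to 0.67 in C against B.

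Without A2 and C2 together Zbed3 turned to 0.61 in C against B, Nlrp4f to -0.33 in C against A, and in B against A Ooep to -0.33, Tle6 to -0.10, Khdc3 to -0.13 and Nlrp4f to -0.24. With a pseudocount of 0.1 Nlrp2 turned to -0.078 in C against B and, for C against A, to -0.13. After median scaling Nlrp2 was -0.050 in C against A and Tle6 -0.036 in B against A, and after quantile normalization Tle6 was -0.040. Apart from the libraries left out, the cause was not tested. Between 4 and 5 of 7 neighbouring levels kept their order in every library under the alternatives run. Khdc3, Nlrp2 and Tle6 are limited by depth.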
